A study of Mus musculus with 10 samples.

Results

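The libraries described here are the 4 of 10 mouse retina libraries that were rich in lens RNA. They were chosen by their own counts: a library was called lens-rich where the 15 genes whose symbols begin with Cryaa, Cryba, Crybb or Cryg took over 1% of its raw counts, and lens-poor otherwise. The lens-rich libraries were vehicle 835, vehicle 1582, vigabatrin 2344 and vigabatrin 2429, and the 6 lens-poor libraries were vehicle 832, vehicle 1580, vehicle 2345, vigabatrin 2347, vigabatrin 2349 and vigabatrin 2428, each named by its treatment and the number in its title. All came from C57BL/6 mice of 10 to 12 weeks. The 5 vigabatrin animals had received 140 mg/kg/day of the drug, an inhibitor of the GABA-degrading enzyme GABA transaminase, for 11 days from a pump under the skin, and the 5 controls were labelled vehicle by treatment and untreated in their titles. Whole retinas were frozen and their RNA sequenced. Nothing in the labels says whether retinas of several animals were pooled, and the tests below see only how these libraries vary.

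The lens lies against the iris and the ciliary body, and the retina ends at the ciliary body. Crystallins are the structural proteins of the lens: alpha crystallins are chaperones of the small heat shock family, and beta and gamma crystallins pack the fibre cells. A single layer of lens epithelium covers the front of the lens, fibre cells form its bulk, and both sit inside the capsule, a thick basement membrane of type IV collagen, laminin, nidogen and perlecan. Melanin is made in the pigment epithelium behind the retina, and also in the pigmented cells of the iris, ciliary body and choroid, whereas the visual cycle enzyme Rpe65 marks the pigment epithelium.

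The 250 bases before the gene start of 6 genes are shown, in GRCm38.p6 from RefSeq, because these genes mark the tissues compared below: Cryaa and Crybb2 the lens as a whole, Foxe3 the lens epithelium, Tyr and Dct melanin synthesis, and Rpe65 the pigment epithelium. Capitals mark every match, on either strand, to TGCTGA, the half-site bound by Maf factors of the lens, or to CATGTG, the core of the M-box bound by the pigment cell factor MITF.
Cryaa: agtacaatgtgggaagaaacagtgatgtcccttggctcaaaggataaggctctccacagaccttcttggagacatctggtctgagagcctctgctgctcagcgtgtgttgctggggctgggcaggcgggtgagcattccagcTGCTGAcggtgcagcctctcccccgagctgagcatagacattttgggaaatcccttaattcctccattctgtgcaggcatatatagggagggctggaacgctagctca
Crybb2: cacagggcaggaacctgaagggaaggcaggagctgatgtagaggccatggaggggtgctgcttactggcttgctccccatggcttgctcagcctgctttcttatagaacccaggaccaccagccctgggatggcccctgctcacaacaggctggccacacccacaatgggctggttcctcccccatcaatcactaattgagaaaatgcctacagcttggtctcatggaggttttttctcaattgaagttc
Foxe3: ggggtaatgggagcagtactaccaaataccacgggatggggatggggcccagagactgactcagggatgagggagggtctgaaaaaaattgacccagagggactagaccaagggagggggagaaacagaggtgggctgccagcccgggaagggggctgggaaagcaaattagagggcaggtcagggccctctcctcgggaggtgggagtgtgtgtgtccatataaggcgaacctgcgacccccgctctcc
Tyr: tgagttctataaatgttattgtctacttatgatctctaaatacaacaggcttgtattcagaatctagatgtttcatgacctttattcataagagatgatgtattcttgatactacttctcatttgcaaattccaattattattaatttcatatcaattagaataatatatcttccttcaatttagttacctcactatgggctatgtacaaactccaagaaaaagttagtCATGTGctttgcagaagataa
Dct: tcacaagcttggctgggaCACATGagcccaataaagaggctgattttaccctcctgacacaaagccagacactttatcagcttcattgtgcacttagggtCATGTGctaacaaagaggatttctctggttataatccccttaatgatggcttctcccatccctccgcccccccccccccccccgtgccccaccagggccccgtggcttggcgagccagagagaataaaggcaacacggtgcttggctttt
Rpe65: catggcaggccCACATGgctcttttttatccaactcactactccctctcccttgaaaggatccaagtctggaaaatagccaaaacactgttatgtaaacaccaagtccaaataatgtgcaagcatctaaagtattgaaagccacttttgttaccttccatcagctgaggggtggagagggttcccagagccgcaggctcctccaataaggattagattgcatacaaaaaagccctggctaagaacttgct
They lie at chr17:31677681-31677930 (+ strand), chr5:113070118-113070367 (- strand), chr4:114926068-114926317 (- strand), chr7:87493513-87493762 (- strand), chr14:118052247-118052496 (- strand) and chr3:159598931-159599180 (+ strand). The Maf half-site began 108 bases before the start of Cryaa, and neither motif was found in these windows of Crybb2 and Foxe3. CATGTG began 21 bases before the start of Tyr, at 232 and 150 bases before that of Dct and 239 bases before that of Rpe65. Over 300-base windows that reach 50 bases past the start, TGCTGA was found for 10 of 15 crystallins of the rule, 5 of 12 other lens genes, 3 of 6 melanin genes and 4 of 11 pigment epithelium genes, against 19.1% of 27025 promoters. CATGTG was found for 1 of 15, 4 of 12, 5 of 6 and 3 of 11 of these lists, against 14.1% of all promoters. The motifs were chosen with the expression results known, and a match is a description of the letters only.

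Crystallins took 1.91% of counts in vehicle 835, 1.28% in vehicle 1582, 1.97% in vigabatrin 2344 and 1.75% in vigabatrin 2429. In the lens-poor libraries they took 0.00366% in vehicle 832, 0.0146% in vehicle 1580, 0.0527% in vehicle 2345, 0.000367% in vigabatrin 2347, 0.117% in vigabatrin 2349 and 0.0101% in vigabatrin 2428. The values nearest the bound, vehicle 1582 inside and vigabatrin 2349 outside, lay 10.9-fold apart. These shares defined the groups and are given with no test. Libraries held 36056135 to 54052502 counts, with 2.30% to 2.89% of counts from the mitochondrial genome, and rod genes were the most abundant of the cell type lists in every library.

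**Figure D1:**
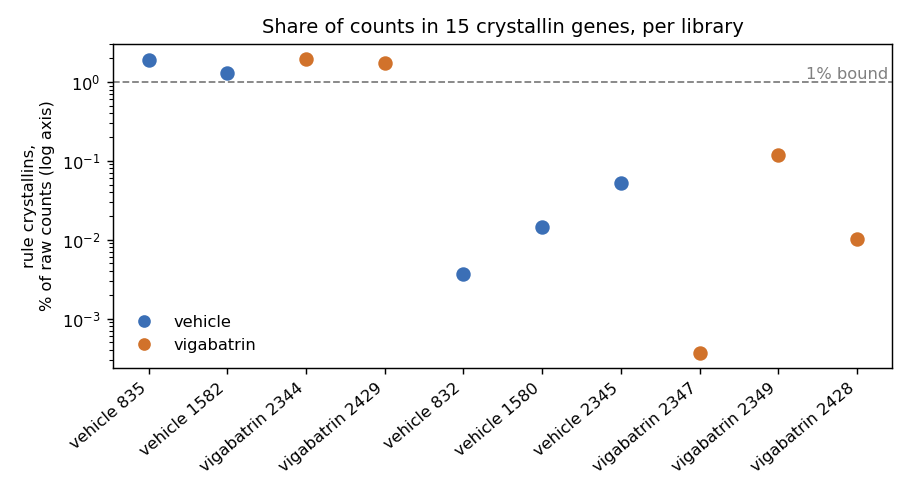
Percent of raw counts in the 15 crystallin genes (log axis) for each library, coloured by treatment. The 4 lens-rich libraries lie between 1.28% and 1.97%, and the 6 lens-poor libraries between 0.000367% and 0.117%.

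Cryaa, Crybb2 and Crygs, which encode an alpha, a beta and a gamma crystallin, show the scale of this difference. Cryaa was at 10630, 7154, 10730 and 9540 CPM (counts scaled to library size, with the trimmed mean of M values) in vehicle 835, vehicle 1582, vigabatrin 2344 and vigabatrin 2429. Its lens-poor levels were 15.4 CPM in vehicle 832, 45.3 in vehicle 1580, 232 in vehicle 2345, 0.449 in vigabatrin 2347, 338 in vigabatrin 2349 and 50.9 in vigabatrin 2428. Mean levels of Crybb2 were 3151 ± 605 CPM (SD, n = 4) and 68.2 ± 100.1 (SD, n = 6), and those of Crygs were 905 ± 193 and 20.9 ± 28.6. Per kilobase of gene length, the highest mean levels in lens-rich libraries were 8021 RPKM for Cryaa, 3478 for Crybb2 and 1279 for Crygs. Every lens-rich library was above every lens-poor library for all 3 genes, which the choice of libraries sets in large part.

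The makeup of the crystallin counts differed among libraries as well as their amount. In the lens-rich libraries Cryaa made 53.5% to 56.1% of crystallin counts and the gamma A to F crystallins, products of the fibre cells, made 0.692% to 1.73%. The gamma A to F share was 20.6% in vehicle 1580 (Wilson 95% interval 19.7 to 21.6) and 17.5% in vigabatrin 2349 (17.2 to 17.8). It was 5.76% in vehicle 2345, 4.87% in vehicle 832 and 3.09% in vigabatrin 2428. Vigabatrin 2347 held only 146 crystallin counts, of which 26.7% (20.2 to 34.4) were Crygn. The intervals cover counting error only, and the gamma A to F genes are so alike that their single values are uncertain.

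**Figure D2:**
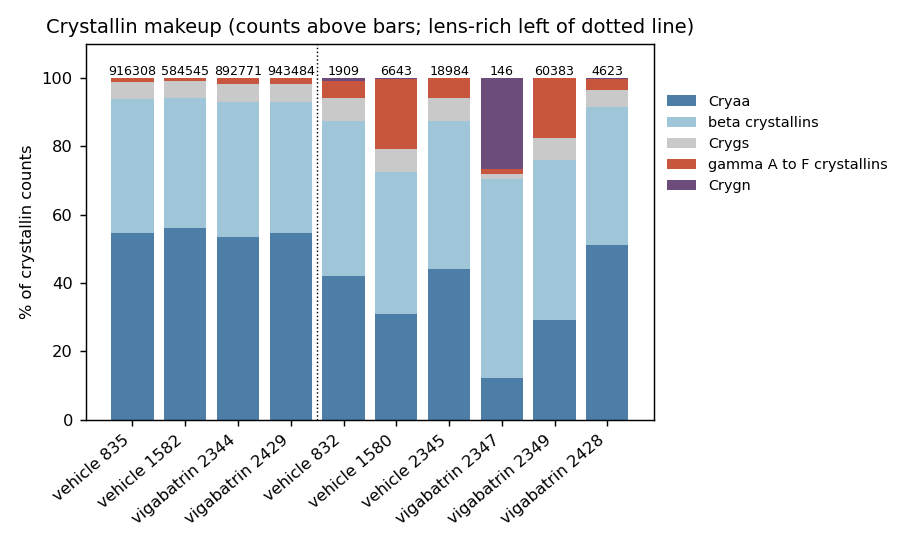
Stacked bars of the percent of crystallin counts in Cryaa, beta crystallins, Crygs, gamma A to F crystallins and Crygn in each library, with the number of crystallin counts above each bar. The 4 lens-rich bars are alike, with 0.692% to 1.73% gamma A to F, and the largest gamma A to F shares are those of vehicle 1580 and vigabatrin 2349.

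Outside the crystallins of the rule, 1093 of 17899 tested genes (6.11%) were higher in lens-rich libraries and 54 (0.302%) were lower, by edgeR's quasi-likelihood test with treatment as a term and a Benjamini-Hochberg adjusted p under 0.05. Of the higher genes, 466 had a log2 fold change of at least 1 and 181 of at least 2, with a median of 0.85. The lower genes had a median of -0.20, and 1 of them reached -1. The count of higher genes was 612 without vigabatrin 2344, 557 without vigabatrin 2349 and vehicle 2345, and 460 with vehicle 1582 and vigabatrin 2429 as the only lens-rich libraries. The count of lower genes ranged from 6 to 56 when single libraries were left out.

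Lens genes outside the rule were higher in lens-rich libraries for 9 of 14 tested members, and none was lower, against the 6.11% and 0.302% of all genes. The libraries were chosen by their lens crystallins, so a rise of other lens genes is set in large part by that choice. The median log2 fold change of the 14 was 4.25, against -0.02 over all tested genes. Foxe3, a transcription factor of the lens epithelium at chr4:114925147-114926013, had 645, 817, 756 and 1104 counts in vehicle 835, vehicle 1582, vigabatrin 2344 and vigabatrin 2429. It had 2 counts in vehicle 1580, 1 in vigabatrin 2428 and 0 in the other 4 lens-poor libraries. The groups did not overlap, as for 965 of 17899 tested genes (5.39%) that were higher in every lens-rich library, with 1.83% lower in every one. The pooled level was 1553-fold higher (exact counting interval 531 to 7537). That interval covers counting error only, not the variation between libraries. The edgeR log2 fold change was 10.3 (SE 0.29, edgeR adjusted p = 1.4e-09). With so few counts in lens-poor libraries, the place of Foxe3 among the tested genes rests on the libraries chosen for lens RNA. The size and p are set in large part by that choice too.

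Gja3, which encodes a connexin that couples lens fibres, was at 26.8, 19.7, 27.6 and 26.5 CPM in vehicle 835, vehicle 1582, vigabatrin 2344 and vigabatrin 2429, and at 0.0499 to 1.23 CPM in lens-poor libraries (log2 fold change 6.40, SE 0.49, edgeR adjusted p = 6.9e-06). Its groups did not overlap, as for the 5.39% of all tested genes that were higher in every lens-rich library. Mip, the water channel of the fibre membrane, was at 93.8 to 164 CPM in lens-rich libraries and highest among lens-poor ones in vigabatrin 2349, at 8.30. Grifin, a lens galectin, was at 37.4 to 53.9 against 0.0249 to 2.38 CPM. Cryab, the other alpha crystallin and outside the rule by its name, was at 2101 ± 270 CPM (SD, n = 4) against 43.1 ± 20.02 (SD, n = 6).

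The lens genes that were not called included 2 fibre genes whose levels in vigabatrin 2349 lay close to or above those of the lens-rich libraries. Bfsp1, which encodes the beaded filament protein filensin, was at 92.1, 47.6, 125 and 82.4 CPM in vehicle 835, vehicle 1582, vigabatrin 2344 and vigabatrin 2429. It was at 46.4 CPM in vigabatrin 2349, 17.3 in vehicle 2345 and 0.474 to 3.79 in the other lens-poor libraries (log2 fold change 2.98, SE 0.90, edgeR adjusted p = 0.083). Lgsn, the lens glutamine synthetase-like protein lengsin, was at 22.2 CPM in vigabatrin 2349, above the 6.22 to 17.97 of the lens-rich libraries, and at 0.150 to 2.06 in the other lens-poor ones. The summed gamma A to F level was 202 CPM in vigabatrin 2349 and 88.2 to 323 in the lens-rich libraries. These levels stood in vigabatrin 2349 beside a Cryaa level of 338 CPM, a Mip level of 8.30 CPM and 0 counts of Foxe3 among 51397136. Without vigabatrin 2349 and vehicle 2345, 12 of 13 tested lens genes were called higher, against 557 of 17782 genes in that fit. These 2 lens-poor libraries held the most crystallin and were left out after results were seen, so that choice sets the count in large part. On all 10 libraries DESeq2's Wald test called 5 of 14 lens genes higher, and limma-voom 10 of 14. Caprin2, an RNA-binding protein of the same list, was at 24.95 ± 2.76 CPM (SD, n = 4) and 24.1 ± 1.0 (SD, n = 6).

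Outside the lists, the genes of largest change and smallest p included 4 that encode basement membrane proteins. Nid1, which encodes the basement membrane linker nidogen, was at 149, 118, 140 and 151 CPM in vehicle 835, vehicle 1582, vigabatrin 2344 and vigabatrin 2429, and at 3.86 to 4.95 CPM in lens-poor libraries (log2 fold change 5.05, SE 0.08, edgeR adjusted p = 1.9e-11). Col4a1 and Col4a2, the most widespread type IV collagen chains, were at 617 ± 67 against 61.2 ± 5.0 CPM and at 359 ± 40 against 58.6 ± 3.9 CPM (SD, n = 4 and 6). Hspg2, which encodes perlecan, was at 161 ± 21 against 20.9 ± 2.2 CPM. None of these 4 genes, which were picked for their size or p, overlapped between groups, against the 5.39% of all tested genes, and vigabatrin 2429 lay within the range of the other lens-rich libraries or at its top.

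Others of these genes were also alike in the 4 lens-rich libraries. Wnt7b, a secreted WNT ligand, was at 29.4 to 41.5 CPM in lens-rich and 0.0997 to 0.997 in lens-poor libraries (log2 fold change 6.71, SE 0.36, edgeR adjusted p = 3.3e-07). Its relative Wnt7a was at 4.28 to 6.40 against 0 to 0.192 CPM. Pitx3 and Sox1, transcription factors needed for lens development, were at 8.55 ± 1.35 against 0.0843 ± 0.1147 CPM and at 5.24 ± 0.80 against 0.0758 ± 0.0913 CPM (SD, n = 4 and 6). Fgfr3, a fibroblast growth factor receptor, was at 21.8 to 28.0 against 0.861 to 1.42 CPM. Rspo1, which encodes a WNT co-activator, Srd5a2, a steroid reductase, Slc38a4, an amino acid transporter, and Emilin3, Tmem40 and R3hdml were also higher, with log2 fold changes of 3.79 to 6.68 and no overlap between groups. They were picked for their size or p, and 5.39% of all tested genes were higher in every lens-rich library. Gjb2, a connexin, was at 2.57 to 5.83 CPM in 3 lens-rich libraries and at 0.185 in vigabatrin 2429, inside the lens-poor range of 0.0575 to 0.249.

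Among the 181 higher genes with a log2 fold change of at least 2, 113 were within 0.5 to 2 times the mean of the other lens-rich libraries in vigabatrin 2429, 68 were under 0.5 times and 0 were above 2 times. The genes were picked for a high level over a group that holds vigabatrin 2429, and no like count was made for another lens-rich library. The counts are therefore not read as a trait of vigabatrin 2429 alone. The lists below contain genes within this range and genes under it.

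**Figure D3:**
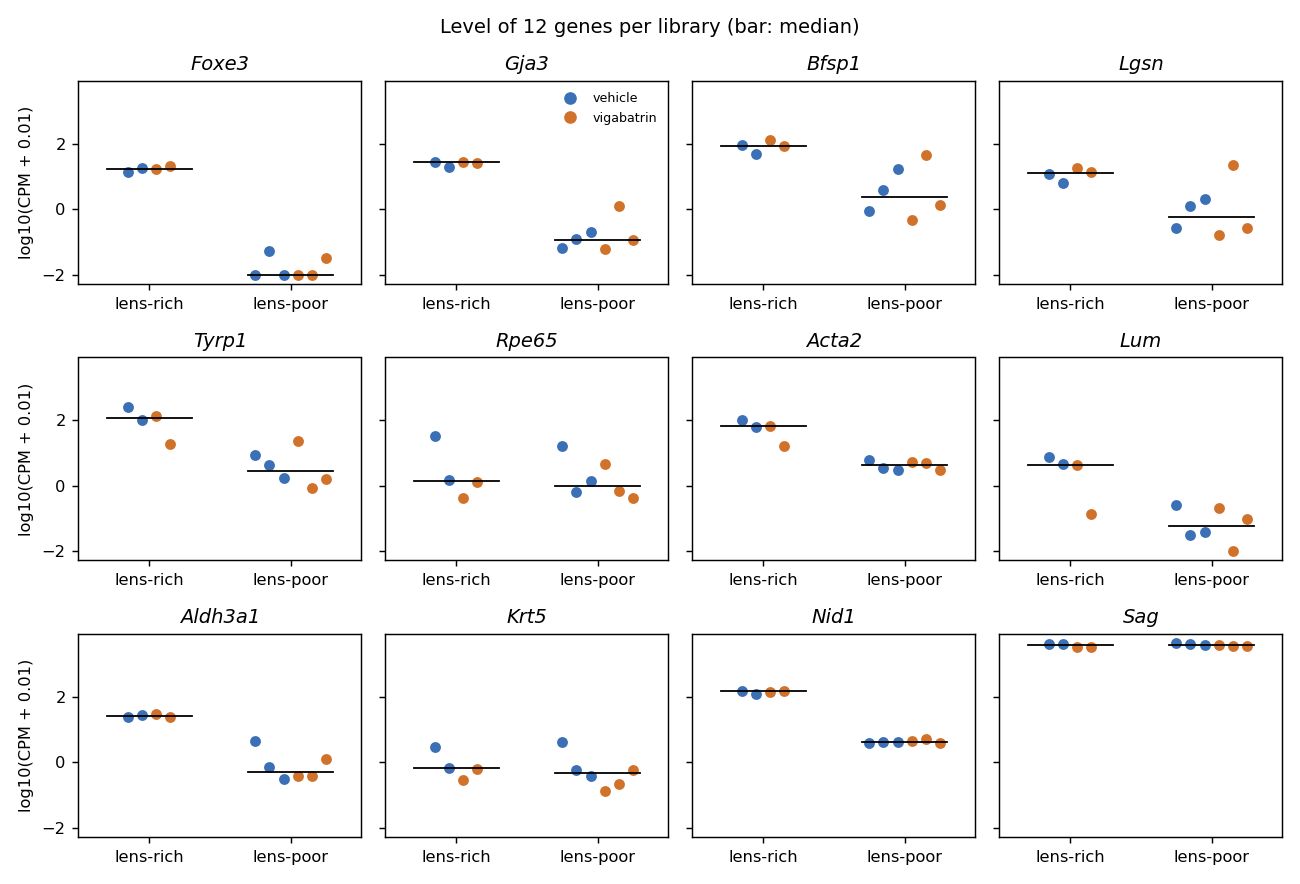
Level of 12 genes in each library as log10(CPM + 0.01), lens-rich at left and lens-poor at right in each panel, coloured by treatment, with a bar at the median. Foxe3, Gja3 and Nid1 separate the classes in every library, Lum and Tyrp1 are low in vigabatrin 2429, and Rpe65 and Krt5 are highest in vehicle 835 and vehicle 832.

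Melanin genes were higher in lens-rich libraries for 9 of 10 members and lower for none (median log2 fold change 3.60), against 6.11% and 0.302% of all tested genes, but at very different levels among the 4 libraries. Tyrp1, an enzyme of melanin synthesis, was at 247 CPM in vehicle 835, 99.3 in vehicle 1582, 133 in vigabatrin 2344 and 19.1 in vigabatrin 2429. In lens-poor libraries it was at 8.54 in vehicle 832, 4.32 in vehicle 1580, 1.69 in vehicle 2345, 23.8 in vigabatrin 2347, 0.824 in vigabatrin 2349 and 1.64 in vigabatrin 2428. The groups thus overlapped at vigabatrin 2347 and vigabatrin 2429, and the log2 fold change was 4.16 (SE 0.86, edgeR adjusted p = 0.014). Pmel, which forms the fibrils of the melanosome, was at 156 to 403 CPM in the other 3 lens-rich libraries and 23.8 in vigabatrin 2429, against 30.5 in vigabatrin 2347. Dct, another melanin enzyme with 2 M-box cores in its promoter above, was at 73.7 CPM in vigabatrin 2429 and 92.6 in vigabatrin 2347 (edgeR adjusted p = 0.049). Tyr, the rate-limiting enzyme, was at 17.1 ± 12.9 CPM (SD, n = 4) against 1.44 ± 2.01 (SD, n = 6), and Slc45a2, a melanosome transporter, at 0.518 to 14.05 against 0.230 to 0.671. Mlana, a melanosome protein, was at 4.85 to 48.8 against 0.0833 to 11.6 CPM and was not called (edgeR adjusted p = 0.078).

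The call of the melanin list depended on single libraries: 2 of 10 members were called without vehicle 1580, 2 of 10 without vigabatrin 2344 and 10 of 10 without vigabatrin 2347. In vehicle libraries alone 10 of 10 were called, against 708 of 17792 genes, with a median log2 fold change of 4.45. In vigabatrin libraries alone 0 of 10 were called, against 331 of 17764 genes, but the median was still 2.86. Each of these fits compares 2 lens-rich with 3 lens-poor libraries, and no difference between treatments is read from the calls. Of 25 alternatives that gave a value, the call was lost in 15 for Dct, 13 for Tyr, 6 for Tyrp1 and 6 for Pmel. Gpnmb, a pigment cell glycoprotein named after its values were seen, was also highest in vehicle 835, at 433 CPM, and lowest of the lens-rich libraries in vigabatrin 2429, at 45.2.

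None of 13 genes that identify the pigment epithelium was called in either direction by the main edgeR fit, DESeq2's Wald test or limma-voom (1 had an unadjusted p under 0.05 in edgeR). EdgeR called 1 of 13 higher without vigabatrin 2347, and 1 of 13 higher with the pigment epithelium level as a term. Of the 13, 12 had a positive log2 fold change, with a median of 0.48, which turned on single libraries: it was -0.06 without vehicle 835, 0.93 without vehicle 832, 1.08 in vehicle libraries alone and -0.10 in vigabatrin libraries alone. Rpe65 was at 33.7 CPM in vehicle 835, 1.44 in vehicle 1582, 0.405 in vigabatrin 2344 and 1.28 in vigabatrin 2429, and at 16.2 in vehicle 832, 0.617 in vehicle 1580, 1.33 in vehicle 2345, 4.69 in vigabatrin 2347, 0.671 in vigabatrin 2349 and 0.409 in vigabatrin 2428. Vigabatrin 2344, with 790 CPM summed over the melanin genes, thus had the lowest Rpe65 level of the 10 libraries, next to vigabatrin 2428. Summed over the list, the level was 531 CPM in vehicle 835 and 318 in vehicle 832, against 120 to 196 in the other 8. Ttr, the thyroxine carrier transthyretin, was at 112 CPM in vehicle 835 and 68.4 in vehicle 832, and at 2.02 to 23.8 elsewhere. Enpp2, which encodes autotaxin, was at 112 CPM in vehicle 835 and 44.0 to 64.1 in the other libraries. Krt18, a keratin of simple epithelia, was at 43.1 ± 5.6 CPM (SD, n = 4) and 41.0 ± 5.3 (SD, n = 6).

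Smooth muscle genes, which in the eye belong to the iris, the ciliary body and vessel walls, were higher for 6 of 7 members and lower for none (median log2 fold change 3.11), against 6.11% and 0.302% of all tested genes. Acta2, smooth muscle actin, was at 102, 62.9, 67.8 and 16.4 CPM in vehicle 835, vehicle 1582, vigabatrin 2344 and vigabatrin 2429, and at 3.06 to 6.02 in lens-poor libraries (log2 fold change 3.78, SE 0.39, edgeR adjusted p = 8.6e-05). Myh11, smooth muscle myosin, was at 150, 66.4, 105 and 7.16 CPM in the same order, so vigabatrin 2429 fell inside the lens-poor range of 4.58 to 8.88. Tagln was likewise at 5.03 CPM in vigabatrin 2429, below every lens-poor library, and at 23.7 to 43.3 in the other 3 lens-rich libraries. Actg2 and Cnn1, an actin and calponin of smooth muscle, were at 0.0370 and 0.130 CPM in vigabatrin 2429, within their lens-poor ranges. Synpo2 was at 61.0 ± 4.8 CPM (SD, n = 4) and 64.3 ± 2.6 (SD, n = 6). In vigabatrin libraries alone, 1 of 6 tested members was called, against 331 of 17764 genes, while their median log2 fold change was 1.90. That fit compares 2 lens-rich with 3 lens-poor libraries.

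Genes of fibroblasts and keratocytes were higher for 8 of 10 tested members and lower for none (median log2 fold change 1.92), against 6.11% and 0.302% of all tested genes. Col6a3, a type VI collagen chain, was at 41.4, 35.1, 39.9 and 39.1 CPM in vehicle 835, vehicle 1582, vigabatrin 2344 and vigabatrin 2429 and at 0.690 to 2.84 CPM in lens-poor libraries (log2 fold change 5.03, SE 0.28, edgeR adjusted p = 4.7e-07). Ogn, a small proteoglycan, was at 17.0 to 22.1 against 2.17 to 7.41 CPM. Neither gene overlapped between the classes, against 5.39% of all tested genes that were higher in every lens-rich library. Lum, the corneal proteoglycan lumican, was instead at 7.55, 4.54, 4.16 and 0.130 CPM, and Dcn, decorin, at 50.6, 32.4, 31.1 and 0.851 CPM, with vigabatrin 2429 inside the lens-poor range for both. Col3a1, a fibrillar collagen, was at 0.980 CPM in vigabatrin 2429 and 7.72 to 14.6 in the other 3. Fmod, fibromodulin, was at 30.0 to 45.9 against 9.86 to 32.7 CPM and Col1a2 at 16.7 to 29.9 against 6.17 to 16.5 CPM, and neither was called. The list had 2 of 9 tested members called in vigabatrin libraries alone, against 331 of 17764 genes, while their median log2 fold change was 1.22. The call of Dcn was lost in 13 of 25 alternatives.

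Epithelial genes of the cornea and conjunctiva divided into those that followed the lens and those that did not, with 3 of 10 tested members higher and none lower, against 6.11% and 0.302% of all tested genes. Aldh3a1, the abundant aldehyde dehydrogenase of the cornea, was at 24.2, 26.6, 29.4 and 23.5 CPM in vehicle 835, vehicle 1582, vigabatrin 2344 and vigabatrin 2429 and at 0.306 to 4.47 in lens-poor libraries (log2 fold change 4.45, SE 0.55, edgeR adjusted p = 4.0e-04). Krt19, a keratin, was at 4.04 to 5.25 against 0.173 to 0.959 CPM, and Perp, a desmosome protein, at 8.31 to 15.5 against 2.17 to 3.94 CPM. Krt5, the keratin of basal stratified epithelium, was at 2.96, 0.654, 0.270 and 0.629 CPM in the lens-rich libraries in the same order. Its lens-poor levels were 4.09 in vehicle 832, 0.551 in vehicle 1580, 0.361 in vehicle 2345, 0.125 in vigabatrin 2347, 0.211 in vigabatrin 2349 and 0.560 in vigabatrin 2428. Krt5 and Krt15, another basal keratin, were highest in vehicle 832 and next in vehicle 835, at 7.17 and 4.42 CPM for Krt15. Sfn, stratifin, was at 2.62 ± 0.26 CPM (SD, n = 4) and 2.98 ± 0.42 (SD, n = 6).

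Of 8 genes of the ciliary epithelium and vitreous, 1 was higher and none was lower, against 6.11% and 0.302% of all tested genes, and no difference is read from 1 gene. Msx1, a homeobox factor, was at 3.17 to 3.62 CPM in lens-rich and 0.115 to 0.639 CPM in lens-poor libraries (log2 fold change 2.95, SE 0.28, edgeR adjusted p = 4.2e-05). It had no overlap, as for the 5.39% of all tested genes that were higher in every lens-rich library. Optc, the vitreous proteoglycan opticin, was at 29.3 to 45.2 against 7.58 to 41.0 CPM, and Col2a1 and Col9a1, cartilage-type collagens of the vitreous, were at 144 ± 6 against 158 ± 18 CPM and 73.5 ± 14.3 against 69.9 ± 15.1 CPM (SD, n = 4 and 6); these 3 were not called.

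**Figure D4:**
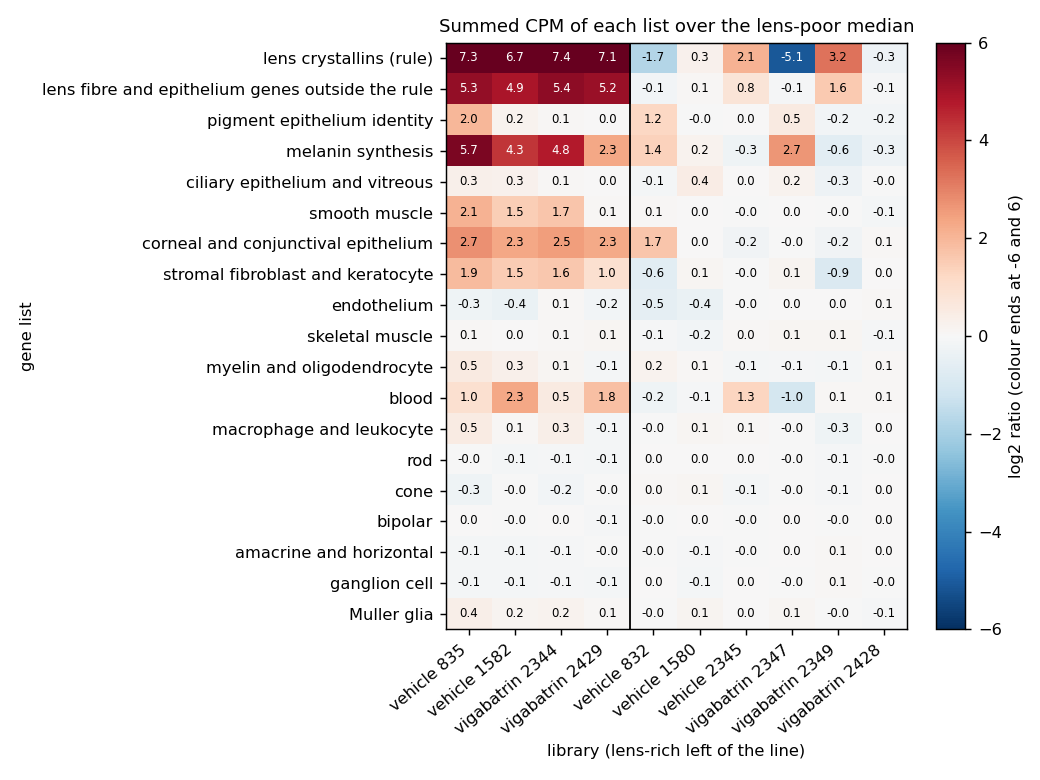
Summed CPM of the crystallins and of 18 gene lists in each library, as the log2 ratio to the lens-poor median. The 2 lens rows are high in all 4 lens-rich libraries, the melanin and smooth muscle rows are lowest in vigabatrin 2429 among them, and the pigment epithelium row is highest in vehicle 835 and vehicle 832.

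Haemoglobin genes were higher for 2 of 5 members of the blood list and lower for none, against 6.11% and 0.302% of all tested genes. Hba-a1 was at 55.6, 141, 42.7 and 105 CPM in vehicle 835, vehicle 1582, vigabatrin 2344 and vigabatrin 2429, and at 13.6 to 71.0 in lens-poor libraries, with vehicle 2345 the highest (log2 fold change 1.47, SE 0.38, edgeR adjusted p = 0.045). Hbb-bs was at 35.98 to 138 against 13.7 to 62.7 CPM, and Hbb-bt at 5.46 to 18.9 against 1.60 to 9.75 CPM without a call; globin genes are near-copies, so their single values are uncertain. The order of the lens-rich libraries in the blood list, with vehicle 1582 highest, differed from their order in the melanin list, with vehicle 835 highest. Leaving out single libraries gave 0 to 5 called members, and the calls of Hba-a1 and Hbb-bs were lost in 12 and 13 of 26 alternatives.

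Endothelial genes had 1 of 8 members called higher, Tie1 (against 6.11% of all tested genes, with no difference read from 1 gene; 9.15 ± 1.77 against 6.60 ± 0.62 CPM, SD, n = 4 and 6), whose call was lost in 16 of 26 alternatives, and Kdr, a VEGF receptor, was at 154 to 234 against 144 to 251 CPM. By edgeR none of 6 tested skeletal muscle genes, 7 tested myelin genes and 8 leukocyte genes was called in either direction, where 0, 2 and 3 of them had an unadjusted p under 0.05. DESeq2's Wald test called 1 myelin gene higher, and limma-voom 1 leukocyte gene higher. Summed over the tested members, their levels were 8.25 to 9.29 against 7.60 to 9.38 CPM, 32.8 to 51.7 against 32.9 to 41.6 CPM and 29.0 to 43.6 against 26.1 to 33.6 CPM.

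In the main edgeR fit none of 10 rod, 8 cone, 10 amacrine and horizontal and 9 ganglion cell genes was called. Of them, 3, 1, 6 and 6 had an unadjusted p under 0.05. DESeq2's Wald test called 1 rod, 3 amacrine and horizontal and 1 ganglion cell gene lower. Limma-voom called 1, 2 and 1 lower, as did edgeR with library sizes alone, and none of these called a cone gene. With single libraries left out, edgeR called at most 1 rod, 1 cone, 1 amacrine and horizontal and 2 ganglion cell genes lower. The 4 lists had median log2 fold changes of -0.07, -0.10, -0.09 and -0.12 against -0.02 over all tested genes. Sag, rod arrestin, was at 3638 ± 378 CPM (SD, n = 4) and 3742 ± 314 (SD, n = 6). Gnat1, rod transducin, was at 9983 to 10480 against 10620 to 11470 CPM, with no overlap, and was not called (log2 fold change -0.11, edgeR adjusted p = 0.069). Of all tested genes, 1.83% were lower in every lens-rich library. CPM are relative to all other RNA in a library, so a lower value need not mean a change in retinal cells. Fewer cells of a type and less RNA per cell cannot be told apart in these libraries, and neither was tested.

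Of 8 bipolar cell genes 1 was higher, and of 9 Muller glia genes 3 were higher, against 6.11% of all tested genes. None was lower by edgeR, and DESeq2's Wald test called 1 and limma-voom 2 Muller glia genes lower, the latter count also by edgeR with library sizes alone. Trpm1, the transduction channel of ON bipolar cells that was first described in melanocytes, was at 453, 382, 401 and 326 CPM in vehicle 835, vehicle 1582, vigabatrin 2344 and vigabatrin 2429 and at 302 to 324 in lens-poor libraries (log2 fold change 0.32, SE 0.07, edgeR adjusted p = 0.015). Vim, vimentin, an intermediate filament of Muller glia and of the lens, was at 329.9 ± 36.9 CPM (SD, n = 4) against 122 ± 9 (SD, n = 6) (log2 fold change 1.44, SE 0.07, edgeR adjusted p = 1.6e-07). It had no overlap, as for the 5.39% of all tested genes that were higher in every lens-rich library. Clu, the secreted chaperone clusterin, was at 739 to 914 against 472 to 582 CPM and Dkk3, a secreted Dickkopf family protein, at 1138 to 1371 against 867 to 1101 CPM, with the call of Dkk3 lost in 11 of 26 alternatives. What lens, iris or pigment cells contributed to the levels of these 4 genes was not tested. Glul, the glutamine synthetase of Muller glia, was at 2675 ± 237 CPM (SD, n = 4) and 2722 ± 192 (SD, n = 6).

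**Figure D5:**
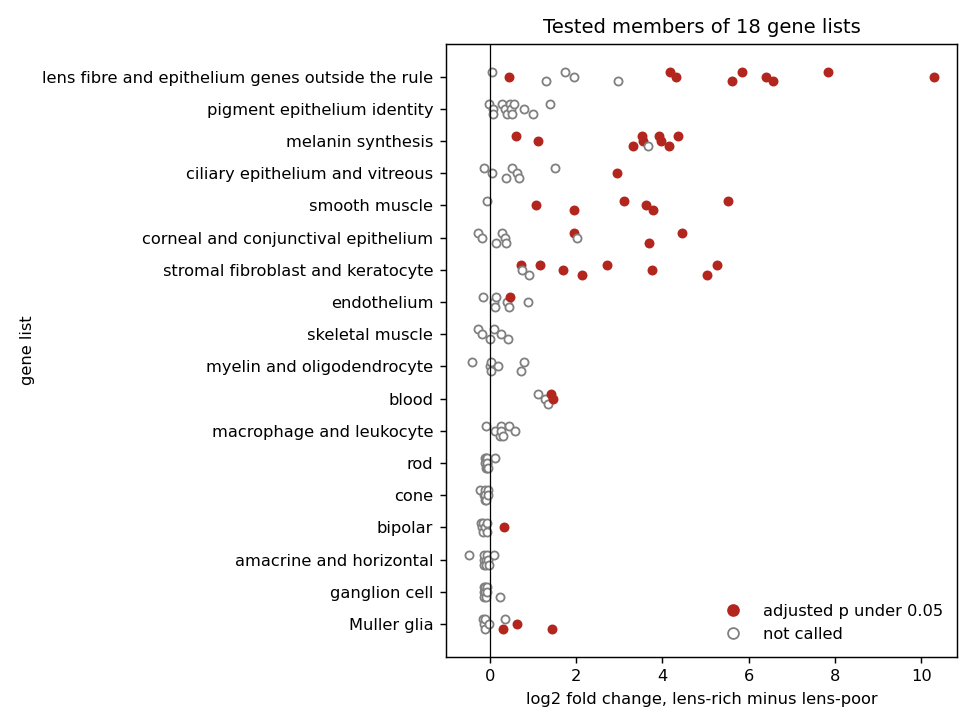
Log2 fold change of each tested member of the 18 lists, filled where called. Called members reach 10.3 in the lens list, while the rod, cone, amacrine and ganglion cell lists hold no member called in the main edgeR fit.

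The 54 genes lower in lens-rich libraries held none from the lists, and their log2 fold changes ran from -0.11 to -1.63, with the median of -0.20 given above. Cdh8, a cadherin, was at 18.4 ± 0.4 CPM (SD, n = 4) against 21.5 ± 0.5 (SD, n = 6) (log2 fold change -0.22, SE 0.05, edgeR adjusted p = 0.013). It had no overlap, as for the 1.83% of all tested genes that were lower in every lens-rich library. Chga, the secretory granule protein chromogranin A, was at 176 ± 6 against 197 ± 4 CPM. Scd3, a stearoyl-CoA desaturase, Wdr78 and Ccdc85a had log2 fold changes of -0.40, -0.23 and -0.20. Calls of these 5 genes were lost in 6 to 8 of the 26 alternatives tried, and those of the other named lower genes in 12 to 22.

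The lens-class difference was not found to depend on treatment: 0 of 18221 genes (0%) passed the interaction test in edgeR, where 1436 had an unadjusted p under 0.05, and DESeq2's Wald test called 3. Leaving out vehicle 1582, or any other lens-rich library, leaves 1 lens-rich library in its treatment group, assumed to vary like the other groups. The outcome turned on which library was left out, so these fits cannot decide the question and no count is read from them. Lens class was balanced over treatment, with 2 of 5 libraries in each. With lens class as a term, 0 of 17899 genes (0%) differed between vigabatrin and vehicle in edgeR, 1644 had an unadjusted p under 0.05, and DESeq2's Wald test called 136. Without vehicle 2345, 68 genes passed in edgeR. Vehicle 2345 is the only vehicle library with a title number in the range of the vigabatrin libraries. Without it, treatment cannot be told apart from the range of title numbers, and with it they are only partly separate. St8sia2, a polysialyltransferase, was at 29.4 ± 0.6 CPM (SD, n = 5) in vigabatrin and 23.3 ± 0.5 in vehicle libraries, with an edgeR adjusted p = 0.070 with the lens term and 0.039 without it. Atf5, a stress response transcription factor, Lars2, the mitochondrial leucyl-tRNA synthetase, and Syt7, a synaptotagmin, also had an adjusted p of 0.070 in edgeR with the lens term, and Npas4, an activity-regulated factor, had 0.071; the same genes had 0.10, 0.10, 0.25 and 0.18 without it.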

How the data were processed

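RNA-seq of 10 retina libraries was analysed from raw read counts per gene, as deposited, with gene lengths in the same table. The authors counted with HTSeq 0.6.1 on mm10 and named DESeq2 and edgeR 3.16.5, per the submitters' processing notes; no aligner, annotation release or strand setting is named in those sources. A further 1 column of counts, matching none of the samples, was not used here.

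Genes were kept by filterByExpr, libraries scaled by TMM and the model fitted on all 10 libraries with edgeR 4.0.16 (quasi-likelihood test, terms treatment and lens class; R 4.3.3). DESeq2 1.42.0 and limma 3.58.1 were alternatives, and the edgeR code was tested on simulated data. Standard errors were taken as the log2 fold change over the root of F (median 0.083). CPM used TMM library sizes, and RPKM the deposited gene lengths. P-values were adjusted over all tested genes, and crystallins of the rule were then left out of counts. Members, lists and named genes were chosen with earlier results of these data known. Named are the marker genes, up to 5 called and 3 uncalled genes of each list, and outside the lists the 12 largest changes and 5 smallest p per direction at a mean of at least 1 CPM; of these, lists without lens-class calls and most lower genes are given as ranges. Cryab and Gpnmb were named after their values were seen. Of the lists' symbols, 1 had several gene IDs, and the most abundant was used. Some genes that the rule names are not reported here.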

Additional observations from a re-analysis of the deposited data

Results flagged for a closer look

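In 40 groups of libraries (18 lists, the crystallins and their share of counts, in each lens class) 4 held a library far from the others, where chance gives about 1 in 20, or 2. The groups share libraries, and the crystallin level and share are nearly the same measure, so this number is a rough guide only. Vehicle 835 was high among lens-rich libraries in the summed pigment epithelium identity genes, at 530.6 CPM against 134.2 to 154.0. Vigabatrin 2347 was high among lens-poor libraries in the summed melanin genes, at 185.5 CPM against 18.9 to 77.3. Vehicle 832 was high among lens-poor libraries in the summed corneal and conjunctival genes, at 28.4 CPM against 7.65 to 9.27. Vehicle 2345 was high among lens-poor libraries in the summed blood genes, at 157 CPM against 31.8 to 68.0. The cause of none of these was tested.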

How the results depend on the processing

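Of the tests tried, the count of genes higher in lens-rich libraries (1093) was 466 at an absolute log2 fold change of at least 1, 182 with the log2 crystallin share as the term, 708 in vehicle libraries only and 331 in vigabatrin libraries only, and 612 to 1301 with single libraries left out, the lowest without vigabatrin 2344. Of 3 alternatives chosen after results were seen, leaving out vehicle 832 and 835 gave 676 higher and 8 lower, leaving out vigabatrin 2349 and vehicle 2345 gave 557 and 3, and leaving out vehicle 835 and vigabatrin 2344 gave 460 and 3. The count of lower genes (54) was 1 at an absolute log2 fold change of at least 1, 129 by library size only, 24 with no filter, 216 with DESeq2's Wald test, 95 with limma-voom, 23 with no treatment term, 21 with a term for the range of title numbers, 30 with the pigment epithelium level as a term, 0 with the log2 crystallin share as the term, 4 in vehicle and 2 in vigabatrin libraries only, and 6 to 56 with single libraries left out, the lowest without vigabatrin 2349. The interaction (0) gave 3 with DESeq2's Wald test and 0 to 1315 with single libraries left out, the highest without vehicle 1582. The treatment test (0) gave 1 with no lens term, 136 with DESeq2's Wald test, 24 with no filter and 0 to 68 with single libraries left out. Of 64 named genes called, 25 kept the call in all alternatives that gave a value; where not stated, the cause was not tested. Log2 fold changes of some named genes without a call changed sign. With limma-voom these were -0.54 for Rpe65, -0.29 for Krt5, -0.63 for Ttr, -0.12 for Krt15, -0.058 for Cnp, -0.00328 for Csf1r. With the pigment epithelium term these were -0.53 for Rpe65, -0.23 for Krt5, -0.47 for Ttr, -0.24 for Krt15, -0.0149 for Cnp. With the crystallin share term these were -0.0527 for Rpe65, -0.00148 for Krt5, -0.0070 for Krt18, -0.066 for Ttr, -0.00391 for Col9a1, -0.00799 for Mylpf. With vigabatrin libraries these were -1.12 for Rpe65, -0.0216 for Krt18, -0.84 for Ttr, -0.0461 for Col9a1, -0.0287 for Pecam1, -0.00238 for Mylpf, -0.0607 for Cnp, 0.0256 for Opn1sw. With vehicle 832 and 835 left out these were -0.50 for Rpe65, -0.00308 for Krt18, -0.53 for Ttr, -0.00995 for Col9a1, -0.0783 for Cnp, 0.0469 for Opn1sw. With vehicle 835 and vigabatrin 2344 left out these were -1.31 for Rpe65, -0.22 for Krt5, -0.0526 for Krt18, -0.94 for Ttr, -0.50 for Krt15, -0.12 for Cnp, -0.18 for Csf1r, 0.0532 for Opn1sw. With vigabatrin 2349 and vehicle 2345 left out these were -0.10 for Krt5, -0.0129 for Krt18, -0.20 for Ttr, -0.055 for Col9a1, -0.0391 for Mylpf. With the title range term these were -0.0609 for Ttr, -0.00362 for Col9a1, -0.00963 for Mylpf. With vehicle libraries these were -0.0793 for Krt15, 0.00539 for Glul. With library size only these were -0.0121 for Mylpf. With single libraries left out they ranged from -1.52 to 1.54 for Rpe65, -0.30 to 1.31 for Krt5, -0.00553 to 0.13 for Caprin2, -0.015 to 0.15 for Krt18, -1.24 to 1.03 for Ttr, -0.00408 to 0.15 for Col9a1, -0.27 to 2.09 for Krt15, -0.0402 to 0.0556 for Mylpf, -0.0723 to 0.0738 for Cnp, -0.000797 to 0.24 for Csf1r, -0.0816 to 0.018 for Opn1sw, -0.0534 to 0.00871 for Glul. No paired analysis was possible because no replicate number occurs in more than 1 library; the term for the range of title numbers gave 872 higher and 21 lower genes. DESeq2 gave no adjusted p for some genes, which were left out there.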
